A study of Macaca fuscata with 12 samples.

Results

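Tool-use training was examined in the cortex around the lateral sulcus, the fold that hides the secondary somatosensory cortex (SII), in the left hemisphere of Japanese macaques (Macaca fuscata). The comparison takes the 6 arrays titled as SII tool-use training (3) or SII control (3) out of the 12 arrays of the series; the remaining arrays hold tissue from the intraparietal sulcus. Each of the 6 arrays held RNA of a different animal. Control 1 was a female of 4 years and 6 months, control 2 a male of 5 years and 4 months, and control 3 a male of 5 years and 10 months. Trained 1 was a male of 5 years and 7 months, trained 2 a female of 3 years and 10 months, and trained 3 a male of 5 years and 1 month. The females were the youngest animal of each group, so sex and age cannot be told apart here. The labels do not give the task, its length, the handling of the controls or the time between training and tissue collection. They describe the tissue as the sulcus and its surroundings, so cortex other than SII and white matter may be included.

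The secondary somatosensory cortex receives input from the body surface and from primary somatosensory cortex, and is known for touch on both sides of the body and for joining touch with movement. Training-related change in adult cortex is commonly discussed in terms of neurotrophic factors, receptors and channels at synapses, growth of axons and dendrites, the matrix around neurons, and the glia and vessels that serve them. A piece of tissue mixes all these cells, so fewer cells of a type and less RNA per cell cannot be told apart.

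Values are on a log scale, read here as log2 units, and centred by the authors: over the 12 arrays every probe set (a group of probes for 1 transcript) has a median of 0. They show where an array stands for a gene and give no level. All 52766 probe sets that are no array controls were tested, and 14132 genes with a symbol of their own were tested as the mean over their probe sets. A change is the trained mean minus the control mean (n = 3 per group), with its standard error (SE) from limma fitted across all features. That fit takes the spread within groups from all 12 arrays, those of the intraparietal sulcus included. The SE is therefore not that of the 6 SII arrays alone. A rough signal class could be recovered from the spacing of the stored numbers. By this spacing, high signal was assigned to 4478 probe sets, middle to 20861 and low to 17522, while 9905 lay at a lower limit (the floor) in at least 2 arrays. Within groups the median SD in log2 units grew from 0.23 (high) and 0.37 (middle) to 0.78 (low) and 1.03 (floor), so the high class carries the most precise values.

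The arrays differed in readings of RNA quality. The GAPDH and actin controls on the array each have probe sets for the 3' and the 5' end of the transcript, and a larger 3' minus 5' difference is known to accompany shorter RNA or cRNA. For GAPDH this difference was -0.31, -0.27 and -0.51 in controls 1 to 3, and 0.77, -0.05 and -0.23 in trained 1 to 3. All 3 trained arrays lay above all 3 controls, by 0.53 on average, with trained 1 far above the rest (2-sided exact permutation test, p = 0.1, the smallest that 3 against 3 can give). For actin the difference was 0.25, -1.87 and -1.71 in the controls, and 1.17, 0.63 and -1.54 in the trained arrays. The actin groups overlapped, with a mean difference of 1.20 (exact permutation test, p = 0.2); control 1, trained 1 and trained 2 were high. The female arrays, control 1 and trained 2, shared high hybridisation controls (0.45 and 0.49 against -0.03 to 0.08 in the males). Their floors also lay highest, at 0.66 and 0.96 against -0.71 to 0.21 in the males. Sex, age and these array readings therefore cannot be told apart. Over high- and middle-signal probe sets the SD of the difference between 2 arrays was 0.54 to 0.69 for the pairs of the same sex, and 0.76 to 0.84 for mixed pairs, whatever their groups.

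**Figure D1:**
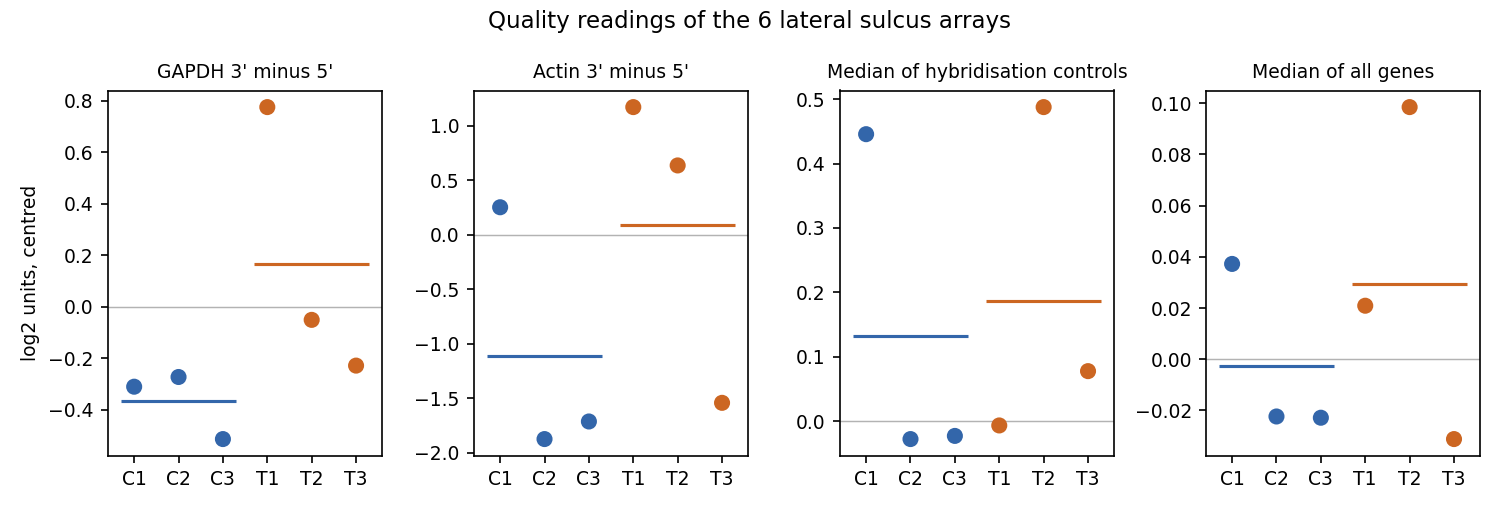
Quality readings per array in centred log2 units (y axis) for controls C1 to C3 (blue) and trained T1 to T3 (orange); points are arrays and lines are group means. GAPDH 3' minus 5' is the 1 plotted reading in which the groups do not overlap, and trained 1 is highest for both GAPDH and actin, at 0.77 and 1.17.

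No gene passed a false discovery rate of 5%: 0 of 14132 genes (0%) and 0 of 52766 probe sets (0%), the smallest adjusted p being 0.101 for genes and 0.116 for probe sets in limma with Benjamini-Hochberg adjustment. At an unadjusted p under 0.05, 316 genes (2.24%) lay higher and 177 (1.25%) lower in trained animals. With quantile normalization this split was 232 higher and 222 lower, with the GAPDH reading described above as a covariate 255 and 236, and without trained 2 it turned to 289 higher and 362 lower. The 3 trained arrays all lay above the 3 controls for 598 genes (4.23%) and below them for 327 (2.31%). With quantile normalization these counts were 452 and 469, so the excess of higher genes was not kept under that scaling. Random labels would separate 3 arrays from 3 in a share of 0.1 of cases, both directions together. In the values as deposited 6.55% of genes were separated, so separation alone does not mark a gene out. Quantile normalization also moved the median change over all genes from 0.03 to -0.03, and a list median that crosses 0 under it by no more than this says nothing particular to the list. Among probe sets, 2479 (4.7%) were separated upwards and 1258 (2.38%) downwards. For quantile-normalized values these were 2130 and 1691. Every gene named below is therefore a value that did not pass, and each list is to be read beside these shares and beside the median change over all genes, with 7699 genes above 0 and 6433 below. Over the 9819 genes with a probe set of high or middle signal, taken from those probe sets alone, 334 (3.4%) were separated upwards and 181 (1.84%) downwards. Of the 203 genes named from the lists, 46 also had low-signal or floor probe sets beside better ones, and in 31 of these the better probe sets gave a change smaller by over 1.5 times or of opposite sign, so both values are given where they differ.

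High-signal probe sets gave the steadiest values, and 206 of the 4478 (4.6%) were separated upwards against 42 (0.938%) downwards, with none past 5% (0%). Quantile normalization changed these counts to 132 and 66, and centring each array on its median to 112 and 64. The high-signal medians of the arrays were -0.05, -0.13 and -0.03 in the controls and 0.01, -0.02 and -0.04 in the trained arrays, so control 2 stood low as a whole. The probe set of EPN1, an epsin that helps form clathrin-coated pits in endocytosis, had the smallest p among those higher. It lay at -1.11, -0.81 and 0.12 in the controls and at 0.38, 0.56 and 0.84 in the trained arrays. Control 3 was close to the trained range and the other controls were well below it. The change was 1.20 ± 0.35, and of its 3 other probe sets only 1 had the same sign.

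ANO3, a member of the anoctamin family of membrane proteins, lay at -0.63, -0.74 and -0.51 in the controls and at 0.20, 0.20 and -0.37 in the trained arrays. Trained 3 was nearer to the controls than to the other trained arrays, and the change was 0.64 ± 0.21. DCLRE1C, which encodes the nuclease Artemis of DNA end joining, lay between -0.16 and -0.06 in the controls and at 0.47, 0.71 and 0.29 in trained 1 to 3. Here the controls were tight and every trained array stood clear of them, but 1 of the other 2 probe sets had the opposite sign. Probe sets of PPIP5K2, an inositol pyrophosphate kinase, and of SERPINE2, a secreted inhibitor of thrombin-like proteases, had changes of 0.63 ± 0.25 and 0.46 ± 0.21. For both, all 3 other probe sets of the gene had the same sign.

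KYNU, the kynureninase of tryptophan breakdown, had a change of 0.65 ± 0.26, with control 3 (0.47) just under trained 3 (0.48). Of its 3 other probe sets only 1 had the same sign. SLC30A3, the transporter that loads zinc into synaptic vesicles, lay between -0.26 and -0.14 in the controls and at 0.54, 0.19 and -0.00 in the trained arrays, a change of 0.46 ± 0.20. CASK, a scaffold protein of the synaptic membrane, had a change of 0.48 ± 0.22, with 1 of its 2 other probe sets of the same sign. TNKS (tankyrase, a poly-ADP-ribose polymerase), COX7A2 (a cytochrome c oxidase subunit), CCT6A (a subunit of the TRiC chaperonin) and ARGLU1 (a splicing co-factor) lay higher by between 0.37 and 0.50. The 1 other TNKS probe set did not share the sign, and 1 of 2 others did for ARGLU1. For COX7A2 and CCT6A the 1 other probe set shared it. For SLC30A3, CASK, TNKS, COX7A2, CCT6A and ARGLU1 the highest array was trained 1, the array with the highest GAPDH reading.

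Among high-signal probe sets lying lower, RAB2A, a small GTPase of transport between endoplasmic reticulum and Golgi, stood at 0.31, 0.49 and 0.88 in the controls and at -0.56, 0.03 and 0.26 in the trained arrays. The groups nearly met at control 1 and trained 3, and the change was -0.65 ± 0.27, with 2 of its 4 other probe sets of the same sign. PTN, a secreted heparin-binding growth factor of glia and neurons, lay at 0.26, 0.69 and 0.31 against 0.06, 0.11 and 0.03, a change of -0.35 ± 0.20, and both other PTN probe sets had the same sign. LYAR, a nucleolar protein, had a change of -0.39 ± 0.19, with the trained arrays within -0.41 to -0.35 and 4 of 5 other probe sets of the same sign. TMBIM4, a membrane protein of the Bax-inhibitor family, had a change of -0.44 ± 0.23 and CA10, a carbonic-anhydrase-related protein, of -0.50 ± 0.32. The 2 other CA10 probe sets both had the opposite sign.

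The other lower members of this class were C1H1orf43 (-0.53 ± 0.35), the translation factors EIF1 (-0.35 ± 0.24) and EIF3I (-0.35 ± 0.28), OCIAD1, ADH5 (alcohol dehydrogenase class III), the transport GTPase RAB1A (-0.34 ± 0.29) and MTO1, which takes part in modifying mitochondrial tRNA. No other probe set of RAB1A or EIF3I shared the sign, and 1 of 2 did for EIF1. For C1H1orf43, OCIAD1, ADH5 and MTO1 all other probe sets shared it. Trained 1, the array with the highest GAPDH reading, stood lowest for C1H1orf43 and EIF3I, at -0.83 and -0.52, while the other trained arrays lay between -0.01 and 0.15. It was also the lowest array, by smaller margins, for EIF1, RAB1A and MTO1, and among the genes above for TMBIM4. RAB2A, also above, was lowest in trained 1 by a wide margin, at -0.56 against 0.03 and 0.26 in trained 2 and 3. For OCIAD1 and ADH5 the lowest was trained 2, and for PTN, LYAR and CA10 trained 3. In these genes the 3 trained arrays again lay below the 3 controls, by the way they were chosen.

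**Figure D2:**
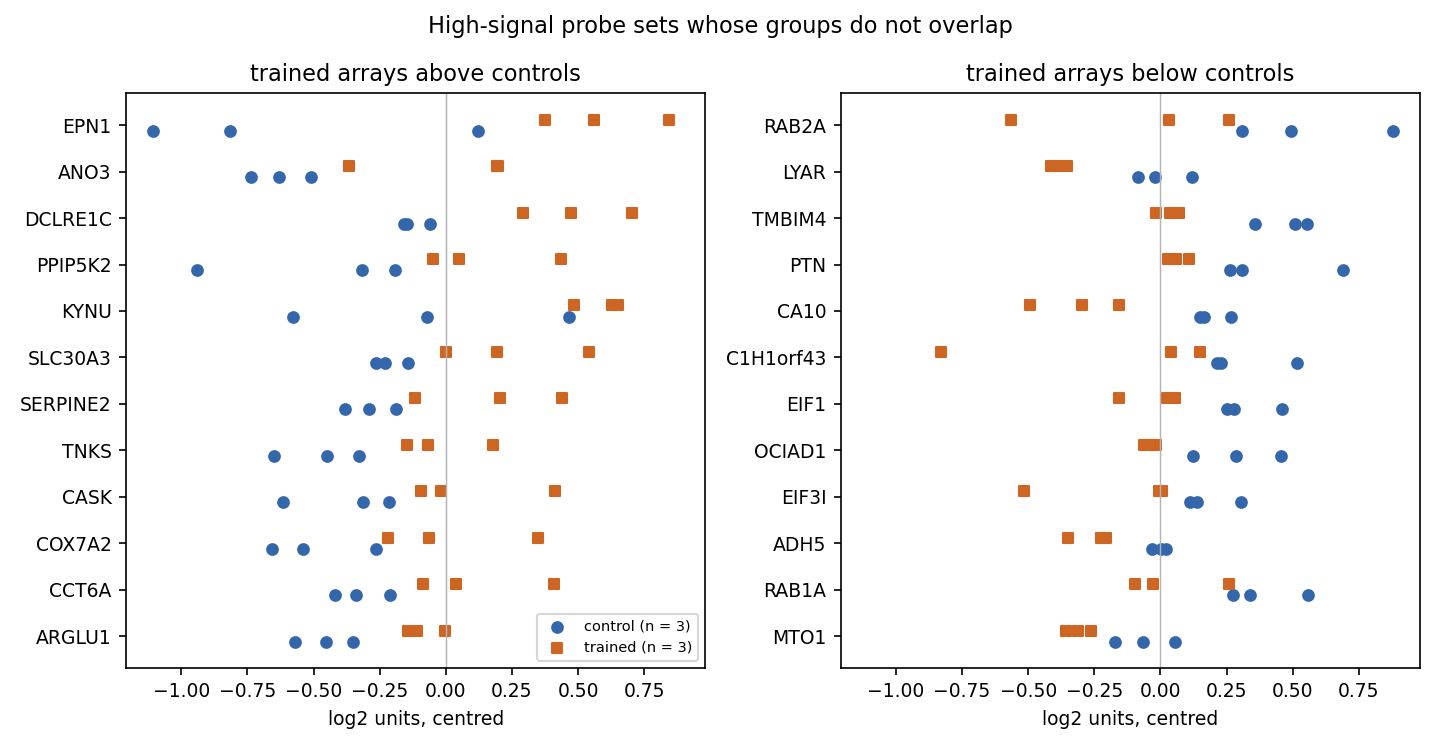
Centred log2 values (x axis) of the 24 named high-signal probe sets, 1 gene per line, with controls as blue circles and trained animals as orange squares (n = 3 each); left, probe sets with all trained arrays above the controls, right, below them. EPN1 has the largest change on the left (1.20) although its control 3 reaches 0.12, and single trained arrays such as trained 1 in C1H1orf43 (-0.83) carry some of the others.

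Fitting the 3' minus 5' readings altered the lower genes more than the higher ones. With the GAPDH reading as a covariate, the median change of the 42 lower probe sets went from -0.25 to -0.13, 33 kept their sign, and 25 changed sign or shrank by more than 50% of their size. Of the 206 higher probe sets, 204 kept their sign, 20 did the same, and the median went from 0.26 to 0.27. The median over all 4478 high-signal probe sets moved from 0.06 to 0.10. With the actin reading as a covariate the medians were -0.15 for the lower probe sets and 0.26 for the higher ones. Single genes followed: C1H1orf43 went from -0.53 to -0.01 with the GAPDH covariate, EIF1 from -0.35 to -0.10, and RAB1A and EIF3I from -0.34 and -0.35 to 0.01 and 0.02. EPN1 went from 1.20 to 1.54, DCLRE1C from 0.61 to 0.69, CCT6A from 0.44 to 0.24, and PTN from -0.35 to -0.29. A covariate fitted on so few arrays takes part of any group difference with it, since the GAPDH reading itself separated the groups, and the part of RNA quality in these changes cannot be told apart from training.

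**Figure D3:**
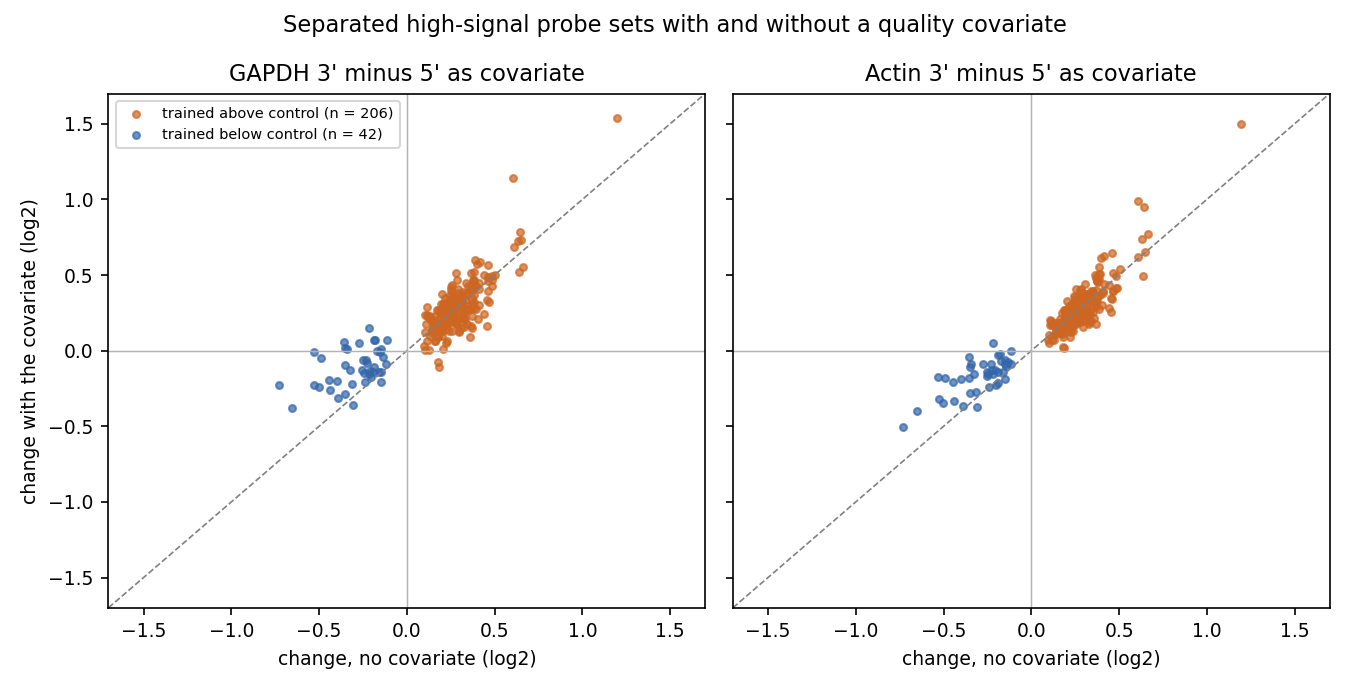
Change per probe set without a covariate (x axis, log2 units) against the change with the GAPDH (left) or actin (right) 3' minus 5' reading as covariate (y axis, log2 units), for the 206 high-signal probe sets separated upwards (orange) and the 42 separated downwards (blue); the dashed line marks equal values. With the GAPDH covariate 40 of the 42 lower probe sets had a smaller size than without it, with a median of -0.13 under the GAPDH covariate against -0.25 without it.

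Most measured markers of the main cortical cells had a probe set of high or middle signal, that is of at least 16. This held for 13 of 14 excitatory neuron markers, 9 of 11 GABA neuron markers, 11 of 12 astrocyte markers and 10 of 10 oligodendrocyte markers. It held for 5 of 26 HOX genes, which cortex is not known to express. The marker lists had named 18, 20, 18 and 21 genes for these cell types, and the rest were not measured as genes of their own. Of the 149 genes in the 12 cell type lists, 3 (2.01%) had separated groups, 1 higher and 2 lower, against 4.23% and 2.31% of all genes. Over high- and middle-signal probe sets 3 of 110 cell type genes were separated, all downwards. Excitatory neuron markers were evenly spread, 7 higher and 7 lower with a median change of -0.02. The smallest p was that of BCL11B, a transcription factor of deep-layer projection neurons, at 0.57 ± 0.39 on a floor probe set. SLA, an adaptor protein, had a change of 0.27 ± 0.33. CAMK2A, the kinase subunit abundant at excitatory synapses, lay at -0.03, 0.10 and 0.14 in the controls and at -0.33, 0.25 and -1.01 in the trained arrays. Only trained 3 and trained 1 stood below the controls, and the change of -0.40 ± 0.39 was -0.02 without trained 3.

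Of the GABA neuron markers 8 lay higher and 3 lower, with a median of 0.15 that was 0.02 in the male animals and 0.07 with quantile normalization. PVALB, the calcium buffer of fast-spiking interneurons, lay at 1.60, 0.08 and -0.08 in the controls and at -1.11, -0.15 and 0.29 in the trained arrays. The spread was set by control 1 at the top and trained 1 at the bottom, so the change of -0.86 ± 0.47 went to -0.41 among males and to -0.48 with the GAPDH covariate. CNR1, the cannabinoid receptor found on a class of interneurons, had a change of 1.75 ± 0.90 on a floor probe set, and LHX6, a transcription factor of these cells, of 0.47 ± 0.42, with 0.07 ± 0.21 on its middle-signal probe set.

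Astrocyte markers lay lower in 8 of 12 (median -0.12, and -0.18 with quantile normalization), none of them separated. SOX9, a transcription factor of astrocytes, ranged from 2.07 to 2.81 in the controls and stood at -0.92, 3.55 and -0.95 in trained 1 to 3. The trained arrays thus split, with trained 2 above all controls, and the change of -1.89 ± 1.05 rests on a low-signal probe set. ALDH1L1, a folate enzyme of astrocytes, had a change of -0.32 ± 0.22. Oligodendrocyte markers had 6 higher and 4 lower (median 0.08). MBP, a main protein of myelin, had both probe sets in the high class and lay at 0.41, 0.25 and 0.37 in the controls and at -1.17, 0.93 and 0.55 in the trained arrays. Trained 1 alone was low and the other 2 were above every control. The change was -0.27 ± 0.49, and 0.18 with the GAPDH covariate. ASPA, which breaks down N-acetylaspartate in these cells, was separated downwards (-0.52 ± 0.32, and -0.21 with the GAPDH covariate). Precursor markers had 6 higher and 4 lower, with a median of 0.09 that was -0.04 with quantile normalization. PCDH15, a protocadherin of precursors, had a change of 1.72 ± 0.68 with overlapping groups, while PTPRZ1, a receptor phosphatase that binds PTN, went from -0.84 ± 0.53 to -0.10 with the GAPDH covariate and to -0.25 on its middle-signal probe set.

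**Figure D4:**
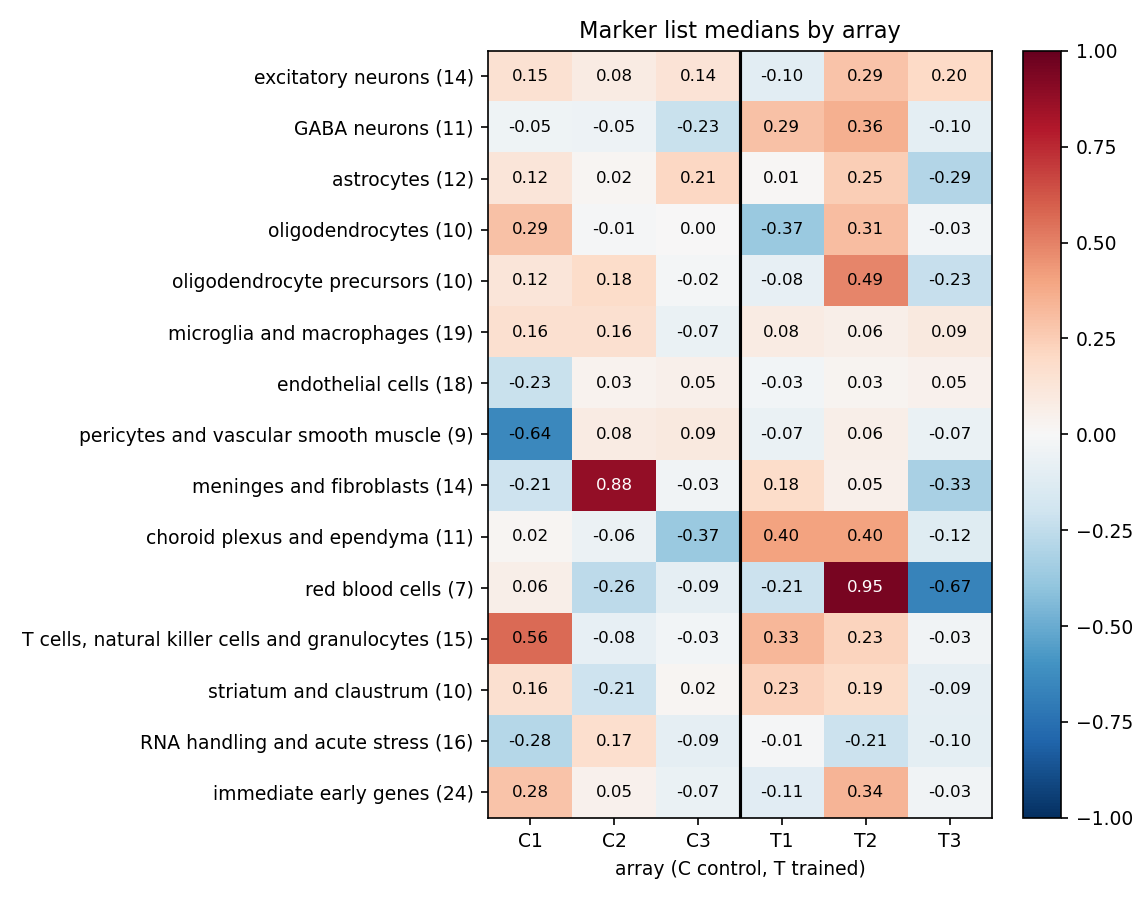
Median of each marker list (rows, with the number of measured genes) in each array (columns, C control, T trained), in centred log2 units by colour and number. No row separates the groups; single arrays carry the extremes, such as control 2 for meninges and fibroblasts (0.88), trained 2 for red blood cells (0.95) and control 1 for pericytes (-0.64).

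Vessel and border markers differed between single animals. Endothelial markers had 9 higher and 9 lower (median -0.00), with FLT1, a receptor for vascular endothelial growth factor, at -0.64 ± 0.34. Pericyte and smooth muscle markers had a median of 0.11, -0.05 with quantile normalization and -0.11 without control 1, the array in which they lay at -0.64. Markers of meninges and fibroblasts were lower in 10 of 14. Their median was 0.88 in control 2 and between -0.33 and 0.18 in the other arrays, and the median change of -0.15 became 0.18 without control 2 and -0.53 among males. LUM, the collagen-binding proteoglycan lumican, was the separated member: 0.16, 1.11 and 0.34 in the controls against -0.29, -2.09 and -0.71 in the trained arrays. All trained arrays were below all controls, with trained 2 lowest, and the change was -1.53 ± 0.50, with 3 of 3 probe sets of the same sign. Its 2 middle-signal probe sets alone gave -1.27 ± 0.55 with overlapping groups.

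Markers of choroid plexus and ependyma were higher in 9 of 11, with a median change of 0.36, the largest of the lists, and a range of 0.28 to 0.57 when single arrays were left out. Their median was 0.02, -0.06 and -0.37 in the controls and 0.40, 0.40 and -0.12 in the trained arrays. Trained 3 fell among the controls, and no member was separated. RSPH1, a protein of motile cilia, had a change of 0.41 ± 0.22, SLC4A5, a bicarbonate transporter of choroid plexus, 1.09 ± 0.62, and TEKT1, a ciliary filament protein, 0.56 ± 0.32. These 3 went to 0.18, 0.84 and 0.32 with the GAPDH covariate. Red blood cell markers varied with trained 2, where HBA (alpha globin) lay at 4.04 against -0.39 to 0.88 in the other arrays, and the list's median change of 0.09 became -0.48 without that array.

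Among markers of blood lymphocytes and granulocytes, NKG7, found in the granules of killer lymphocytes, had the smallest p of all genes (adjusted p = 0.101 in limma). That fit takes its spread from all 12 arrays; with the 6 arrays fitted alone, the smallest adjusted p of any gene in limma was 1.00. It lay at -1.65, -1.77 and -2.30 in the controls and at 0.78, 1.30 and 0.36 in the trained arrays. The groups were far apart relative to their spread, and the change of 2.70 ± 0.33 was 2.50 with the GAPDH and 2.40 with the actin covariate and 2.59 in males. Its 1 probe set has a low signal. The rest of the list did not separate: 9 of the 15 markers lay higher and 6 lower, and NKG7 was the 1 separated member. GZMA, a granzyme of the same cells with 4 middle-signal probe sets, had a change of -0.70 ± 0.39, and the antimicrobial peptide gene CAMP of -1.40 ± 0.84. Since the values are centred, they do not show at what level any of these markers was expressed. Microglia and macrophage markers had 9 higher and 10 lower (median -0.03), none separated. CX3CR1, the fractalkine receptor of microglia, had the smallest p, with a change of 1.12 ± 0.57 on a low-signal probe set, and TLR2, a receptor for bacterial lipoproteins, one of -0.58 ± 0.40 on a floor probe set.

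Tissue next to the lateral sulcus includes the claustrum and, further in, the striatum. Of 10 markers of these, 7 lay higher and 3 lower. FOXP2, a transcription factor strong in striatum and deep cortical layers, lay at -0.46, -0.33 and -0.32 in the controls and at 0.30, 0.43 and 0.74 in the trained arrays. All 5 of its probe sets had the same sign. The change was 0.86 ± 0.21, 0.96 with the GAPDH covariate and 0.69 with a common floor. Its middle-signal probe set alone gave 1.05 ± 0.86 with overlapping groups. PPP1R1B, the phosphatase inhibitor DARPP-32 of striatal neurons, was separated in the other direction (-0.69 ± 0.39). Markers of RNA handling and acute stress had 8 higher and 8 lower, with FKBP5, a glucocorticoid-induced co-chaperone, at 1.33, 0.37 and 0.70 in the controls and at -1.27, -0.02 and -1.75 in the trained arrays. These groups did not overlap and the change was -1.89 ± 0.80 on a low-signal probe set. HSP90AB1, the constitutive heat shock protein 90, had a change of -0.49 ± 0.25, but its 3 high-signal probe sets together gave -0.12 ± 0.25.

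Immediate early genes, which neurons switch on within minutes of strong activity, were 12 higher and 12 lower, none separated (0 of 24). Their list median was 0.28 and 0.34 in the female arrays, control 1 and trained 2, and between -0.11 and 0.05 in the males. ARC, which acts at synapses after activity, shows this and was chosen after its values were seen. It lay at 1.86, 0.02 and -0.03 in the controls and at -0.16, 1.74 and -0.02 in the trained arrays. Both female arrays were high, 1 in each group, and the change was -0.08 ± 0.58. KLF4 had the smallest p of the list, with a change of -0.89 ± 0.60, and -0.43 on its middle-signal probe set.

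Neurotrophic factors and their receptors had 7 members higher and 7 lower (median 0.01). RET, the signalling receptor of the GDNF family, lay at 1.37, 1.40 and 2.22 in the controls and at -0.86, 0.40 and 0.16 in the trained arrays. The lowest control was clear of the highest trained array, and the change was -1.77 ± 0.37, -2.17 in males and -1.48 with the GAPDH covariate. Its ligand GDNF lay between -0.54 and -0.09 in the controls and between 0.09 and 0.38 in the trained arrays, a change of 0.58 ± 0.25 on a floor probe set that was 0.06 ± 0.20 once all arrays shared a floor, and persephin (PSPN), another ligand of the family, was separated downwards at -0.51 ± 0.31. All 3 genes rest on probe sets of low signal or at the floor, and none of the 5 members of this list with better probe sets was separated on them. Fibroblast growth factors had 12 higher and 12 lower, and insulin-like growth factors and their binding proteins 6 and 6, with medians of -0.01 and -0.00. FGF21, a metabolic hormone of the family, was the 1 separated member of the former (0.54 ± 0.36).

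Members of the BMP, activin and TGF-beta families lay higher in 24 of 39 (median 0.11, and 0.01 with the GAPDH covariate). TGFBR1, the type I receptor for TGF-beta, lay at -0.46, -0.48 and -0.52 in the controls and at 0.22, -0.25 and -0.06 in the trained arrays. The controls were tight, the groups did not overlap, and the change of 0.45 ± 0.17 had the same sign in 3 of 3 probe sets, with 0.27 ± 0.20 and overlapping groups on the middle-signal one. The ligand TGFB1 was separated downwards (-0.69 ± 0.33, both probe sets of low signal). Wnt ligands, frizzled receptors and their modulators lay higher in 27 of 37, with 5 separated upwards and 1 downwards. Their median change of 0.11 was 0.01 with quantile normalization and -0.09 without control 1, the 1 of 20 alternative fits with the opposite sign. Among males, which leaves out both control 1 and trained 2, it was 0.09. DKK4, a secreted Wnt inhibitor, had a change of -1.99 ± 0.64 on a floor probe set, and the receptor FZD8 of 1.45 ± 0.65, carried by trained 2 (2.48) and trained 3 (1.87) against 0.24 in trained 1. The Notch pathway had 13 higher and 7 lower, and DLL4, a Notch ligand of vessels, was separated at 0.56 ± 0.26.

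Receptors for transmitters were low in signal, with a median SE of 0.50. Of 107 genes in these lists 8 were separated upwards and 1 downwards (8.41% in all), with a median of 0.07; over high- and middle-signal probe sets it was 2 upwards and 3 downwards among 51. Neuropeptide receptors held 4 of them: 21 lay higher and 12 lower, with a median of 0.16 that was -0.01 with the GAPDH covariate. MC5R, a melanocortin receptor, lay at 0.14, 0.05 and -0.22 in the controls and at 0.39, 0.80 and 0.50 in the trained arrays. The groups were separated on a middle-signal probe set, and the change was 0.56 ± 0.23. GALR3, a galanin receptor, had a change of -0.71 ± 0.32 and -0.16 in males.

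For ionotropic glutamate receptors 6 subunits lay higher and 3 lower (median 0.11), and the NMDA subunit gene GRIN3B had a change of 0.73 ± 0.31 with control 2 (0.52) inside the trained range. GRM7 was the only metabotropic glutamate receptor measured as a gene of its own, with a change of -0.59 ± 0.48. GABRR1, the rho subunit best known from retina, was separated at 2.27 ± 0.73 on a floor probe set. Among monoamine receptors HTR3A, the serotonin-gated channel found on interneurons, had a change of -0.90 ± 0.36, with control 1 (0.11) below trained 1 (0.27), and -0.49 with separated groups on its middle-signal probe set. The trace amine receptor gene TAAR6 was separated at 0.85 ± 0.43, and CHRNA9, a nicotinic subunit, overlapped at 1.62 ± 0.66. Neuropeptide precursors had 9 higher and 3 lower, with a median of 0.05 (0.01 with quantile normalization), and none was separated. VGF, a secreted peptide precursor with a high-signal probe set, had a change of 0.21 ± 0.20.

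Presynaptic release genes and postsynaptic scaffolds were near balance, 8 higher and 10 lower, and 11 higher and 12 lower, with medians of -0.03 and -0.01. RAB3B, a GTPase of synaptic vesicles, was separated downwards at -0.60 ± 0.33 and went to -0.29 with the GAPDH covariate. NLGN4X, a postsynaptic neuroligin, was separated at -0.39 ± 0.25, with -0.22 and overlapping groups on its better probe sets. Over high- and middle-signal probe sets 0 of 38 synaptic genes were separated. SYN2, a synapsin that tethers vesicles, had a change of -0.23 ± 0.17, with 3 of 3 probe sets of the same sign. The median SE of the synaptic genes was 0.25, and 92.7% of them had a probe set of high or middle signal.

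Ion channel genes had 4 members separated upwards and 3 downwards among 139 (5.04%), with a median of -0.04. HCN3, a pacemaker channel opened by hyperpolarisation, lay at -0.34, -0.29 and -0.57 in the controls and at 0.41, 0.65 and -0.04 in the trained arrays. The groups did not overlap, trained 3 being nearest to the controls, and the change of 0.73 ± 0.23 was 0.60 with the GAPDH and 0.59 with the actin covariate. In the TRP and HCN list as a whole 16 of 23 lay lower (median -0.12), while with the GAPDH covariate 12 of the 23 lay higher. The 11 members with high or middle signal had 6 higher and 5 lower on those probe sets, with a median of 0.12. Besides ANO3, the lipid scramblase ANO6 was separated at 0.37 ± 0.17, which was 0.19 ± 0.19 with a common floor. Its middle-signal probe set gave 0.38 ± 0.32 with overlapping groups. KCNAB3, a potassium channel beta subunit, was separated at -1.22 ± 0.53, largely through trained 2 (-2.20), and the change was -0.56 in males. KCNK16, a tandem-pore potassium channel, was separated at -1.86 ± 0.75. SCN4A, the muscle sodium channel, overlapped at 1.48 ± 0.61.

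Of the transporters 7 of 60 were separated (11.7%), 4 upwards and 3 downwards. Over high- and middle-signal probe sets this was 0 upwards and 2 downwards among 36 (5.56%), so the upward members rest on weaker probe sets. SLC1A5, a transporter of neutral amino acids such as glutamine, lay at -2.05, -0.78 and -1.37 in the controls and at 0.01, 0.16 and 1.19 in the trained arrays. Every trained array was above every control, and the change of 1.86 ± 0.50 was 2.25 with the GAPDH covariate, on a low-signal probe set. SLC7A2, a transporter of arginine and other cationic amino acids, lay at 0.27, 0.45 and 0.64 in the controls and at -0.36, 0.09 and -0.17 in the trained arrays. All 5 probe sets had the same sign, and the change of -0.59 ± 0.19 was -0.57 with the GAPDH covariate. Its 3 middle-signal probe sets alone gave -0.25 ± 0.21 with overlapping groups. SLC17A9, which loads ATP into vesicles, stood 1.11 ± 0.34 higher, but its 2 probe sets differed in sign and the middle-signal one gave -0.14. ATP1A4, a sodium pump subunit known from sperm, was separated at 1.22 ± 0.40.

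Genes of axon growth and dendrites were balanced as lists. Semaphorins, plexins and neuropilins had 14 higher and 13 lower, slits, robos and netrins 11 and 12, and growth-associated and neurofilament genes 8 and 8, with medians within -0.01 to 0.00. Ephrins and Eph receptors had 1 member separated upwards and 3 downwards among 19. EPHB1, a receptor for ephrin-B ligands that acts at axons and spines, lay at 0.87, 0.49 and 0.67 in the controls and at 0.08, -0.20 and -0.31 in the trained arrays. All 3 of its middle-signal probe sets had the same sign, and the change was -0.79 ± 0.37, and -1.05 with the GAPDH covariate. The ligand EFNB1 was separated at -0.39 ± 0.20 and the receptor EPHA6 at -1.03 ± 0.52. The list's median of -0.08 was 0.13 without control 1 and -0.31 without trained 2.

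DCX, the microtubule protein of young migrating neurons, lay between -0.68 and -0.30 in the controls and between 0.22 and 0.83 in the trained arrays, a change of 1.02 ± 0.26. The middle-signal probe set had a change of 0.01 ± 0.20, so the gene value came from the low-signal one. Tubulins and kinesins had 27 higher and 20 lower (median 0.07, and -0.05 with quantile normalization), with KIF12 (1.36 ± 0.38), TUBB1, a tubulin known from platelets (1.38 ± 0.45), and the kinesin light chain KLC1 (0.86 ± 0.32) separated upwards. None of these 3 had a probe set of high or middle signal, and with a common floor the change of KLC1, a floor probe set, was 0.15 ± 0.13.

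Of the cadherins and protocadherins 23 lay higher and 21 lower, and of the integrins 9 and 11. ITGAD, an integrin alpha chain of leukocytes, lay at 0.18, 0.22 and -0.28 in the controls and at -1.79, -0.71 and -1.12 in the trained arrays. The groups were clearly apart on a low-signal probe set, with a change of -1.27 ± 0.30. In the extracellular matrix 11 of 109 genes were separated (10.1%), 7 upwards and 4 downwards, with a median of 0.02; over high- and middle-signal probe sets it was 4 upwards and 0 downwards among 68. HAS2, which makes hyaluronan, the backbone of the nets around neurons, had a change of 1.89 ± 0.53 with both probe sets at the floor. HAPLN3, a link protein that ties proteoglycans to hyaluronan, was separated at 0.71 ± 0.27, and 0.27 in males. The other 13 perineuronal net genes were not separated.

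Matrix metalloproteases and their inhibitors had 24 higher and 19 lower. MMP2 lay at -0.79, 0.32 and -0.76 in the controls and at 1.63, 0.93 and 0.14 in the trained arrays. Control 2 was above trained 3, and the change of 1.31 ± 0.54 was 0.73 with the GAPDH covariate. On the middle-signal probe set the groups were separated, with a change of 1.99 ± 0.47. The other gelatinase, MMP9, had a change of -0.98 ± 0.44 and MMP11 one of -1.22 ± 0.38, so members of 1 family lay on both sides. Besides LUM, the laminin chains LAMA4 (-0.54 ± 0.25) and LAMB2 (0.42 ± 0.26) were separated, as was the collagen COL28A1 (0.95 ± 0.37). The middle-signal probe set of LAMA4 gave -0.09 ± 0.27 with overlapping groups.

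Immune genes had 15 of 166 separated (9.04%), 10 upwards and 5 downwards, with a median of -0.02. Over high- and middle-signal probe sets this was 2 upwards and 1 downwards among 79 (3.80%). Interferon-induced genes did not share a direction. MX1, an antiviral GTPase, lay at -0.19, -0.46 and 0.06 in the controls and at 0.32, 0.38 and 0.38 in the trained arrays, a change of 0.55 ± 0.21. IFIT1, induced by the same signal, lay at 0.45, -0.13 and 0.53 against -0.23, -1.67 and -0.35, a change of -1.02 ± 0.43. Both were separated on middle-signal probe sets, and IRF7, a transcription factor of this response, overlapped at 0.85 ± 0.38. Genes of MHC class I and II were lower in 12 of 20 (median -0.15) and none was separated. Complement genes were higher in 13 of 19 (median 0.15), also with none separated. Of 106 chemokines, interleukins and receptors 49 lay higher and 57 lower. IL20RB (2.50 ± 0.60, floor), IL27 (-2.57 ± 0.64) and IL16 (-1.0 ± 0.27) had the smallest p, none of them with a middle or high signal.

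Housekeeping families had a median SE of 0.24 over 454 genes and 28 separated genes (6.17%), 16 upwards and 12 downwards, with a median of 0.00. Cytosolic ribosomal proteins had 19 higher and 19 lower, complex I of the respiratory chain 13 and 12, and the proteasome 18 and 14. Complex I members all lay within -0.16 to 0.18. With the GAPDH reading as a covariate several of these lists shifted upwards: the median went from 0.03 to 0.15 for the proteasome, from 0.01 to 0.14 for mitochondrial ribosomal proteins, from 0.01 to 0.11 for complex I and from -0.06 to 0.05 for translation factors. With this covariate, 26 of 32 proteasome genes and 48 of 62 mitochondrial ribosomal genes lay above 0. Over all genes it was 7812 of 14132 with the same covariate, with a median of 0.04. Without the covariate all 4 medians lay within 0.1 of the median of all genes.

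Lysosomal proteases and hydrolases had the lowest median of the lists, -0.21, with 15 of 20 lower and none separated. Their list median was 0.06, 0.17 and 0.05 in the controls and -0.11, 0.06 and -0.02 in the trained arrays, and the median change was -0.11 with the GAPDH and -0.07 with the actin covariate. Over the 19 members with high or middle signal it was -0.09, with 7 higher and 12 lower. CTSL, the protease cathepsin L, had a positive change of 0.43 ± 0.23. Glycolysis genes were lower in 14 of 19 (median -0.09), with the monocarboxylate transporter SLC16A7 separated at -0.28 ± 0.21, and a median of -0.14 for the list over high- and middle-signal probe sets. Histones were higher in 29 of 46, 4 of them separated, with a median of 0.10 that was -0.08 in males. SRSF10, a splicing factor, was separated at -0.44 ± 0.19 with both probe sets of the same sign, and TET3, which oxidises methylated cytosine, at 0.44 ± 0.17, with 0.04 on its middle-signal probe sets.

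Families that cortex is not known to express were looked at in the same way. Of 95 HOX, keratin, germ cell and liver genes 9 were separated (9.47%), 6 upwards and 3 downwards, and only 28.4% had a probe set of high or middle signal. Over these 27 genes, 4 were separated upwards and 2 downwards (22.2%) on those probe sets. KRT81, a hair keratin, lay at -0.88, -1.39 and -1.61 in the controls and at 0.38, 0.70 and -0.13 in the trained arrays. The groups did not overlap, and the change was 1.60 ± 0.33 (adjusted p = 0.897 in limma). ACRV1, a sperm acrosome protein, had a change of 1.24 ± 0.38, HOXC13 one of 1.11 ± 0.43, and KRT36 one of -1.39 ± 0.57, each with separated groups.

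Across the 69 lists with at least 5 measured genes, medians ran from -0.21 to 0.36, 52 of them within 0.1 of 0. With 39 above 0 and 30 below, only 5 were larger than the SD of their own list median within groups, namely choroid plexus and ependyma, BMP, activin and TGF-beta, complement, lysosomal hydrolases, and chaperones. The chaperone median was 0.03, about that of all genes, with an SD of 0.03, and it had the opposite sign in 9 of 20 alternative fits. Over the 20 alternative fits, 8 lists kept their sign throughout: astrocytes, choroid plexus and ependyma, BMP, activin and TGF-beta, Notch, AMPA, kainate and NMDA subunits, MHC, lysosomal hydrolases, and glycolysis. With the GAPDH covariate 42 of 69 kept their sign, with the actin covariate 46, and among males 51. With quantile normalization, which also moved the median of all genes below 0, it was 48, and with single arrays left out between 44 and 57.

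**Figure D5:**
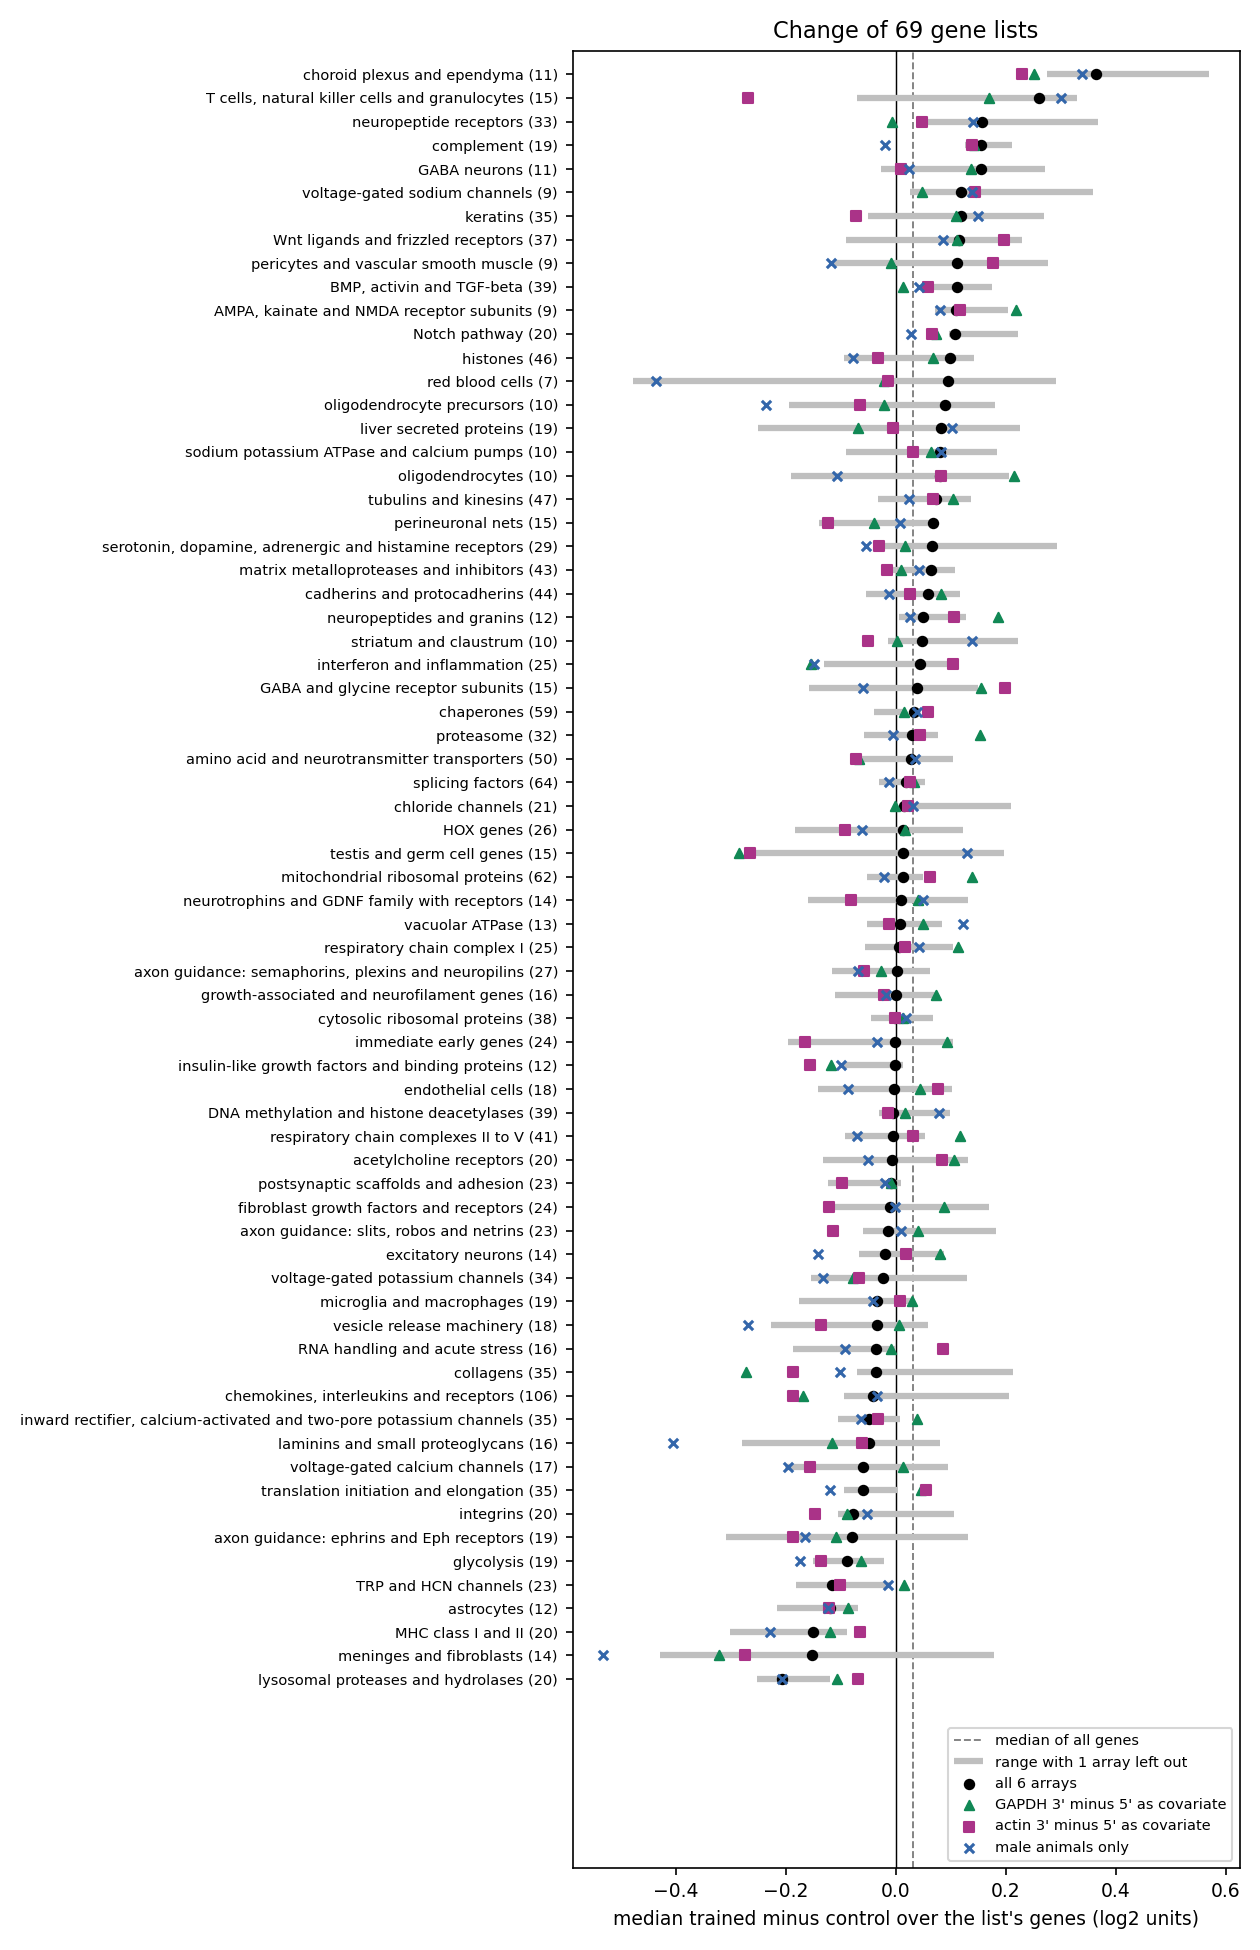
Median trained minus control change (x axis, log2 units) of each of 69 gene lists (y axis, with the number of measured genes): all 6 arrays (black), with the GAPDH (green) or actin (purple) reading as covariate, in male animals (blue crosses), and the range with 1 array left out (grey bar); the dashed line is the median of all genes, 0.03. The medians run from -0.21 to 0.36, and for most lists the bar or the covariate points reach across 0.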

How the data were processed

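RNA levels were read on rhesus macaque arrays (Affymetrix) from RNA extracted with RNeasy kits and labelled from the 3' end, per the labels' protocols. The authors deposited values on a log scale, read here as log2, and the submitters' processing notes name MAS5. The log base and the scaling between arrays are not given in the sources used here. Each probe set is centred on its median over the 12 arrays (largest deviation 2.5e-07), so depth is not defined and the number of arrays limits the precision. Platform annotation gave 24956 probe sets 1 symbol, 361 several and 27449 none.

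Limma 3.58.1 (R 4.3.3, statmod 1.5.0) was fitted to all 12 arrays with 4 group means and a correlation between arrays of 1 animal (0.0474 for probe sets, 0.0862 for genes), with Benjamini-Hochberg adjustment. The SE and p-values rest on the spread within groups over all 12 arrays, the intraparietal ones included. They do not measure the spread among the 6 SII animals alone. Signal was recovered from the spacing of stored numbers: high is at least 256 and middle at least 16 in 11 of 12 arrays. Named genes are the 3 smallest p of each of 70 lists, and up to 12 higher and 12 lower high-signal probe sets with separated groups; genes outside this rule were chosen after their values were seen. The comparison, members and lists were chosen with earlier results of these data known. Same-numbered control and trained arrays come from different animals. Alternatives were the scaling, floor, signal class, summary per gene, sex, males alone, quality covariates, array weights, the 6 arrays alone, a replicate block and each array left out. The fit was also run on simulated independent values, with changes placed in high-signal probe sets alone. That simulation held no floor, no quality difference and no link between arrays of the same animal. It therefore does not bear on genes of low signal or at the floor.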

Additional observations from a re-analysis of the deposited data

How the results depend on the processing

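At an unadjusted p under 0.05 there were 493 genes and 2043 probe sets. With high or middle signal only these were 226 and 664. Leaving out single arrays gave 477 to 816 genes and 2010 to 3244 probe sets, the highest without trained 3. Calls at 5%, of which there were 0, became 2 genes (ACOD1 and NKG7) and 1 probe set with quantile normalization. There were 2 probe sets with array weights, 2 with sex as covariate, 2 with a common floor and 1 with high or middle signal only. With single arrays left out there were 0 to 4 genes (4 without trained 3, 1 without control 3) and 0 to 3 probe sets (3 without trained 3). Separated high-signal probe sets went from 206 higher and 42 lower to 132 and 66 with quantile normalization and 112 and 64 with array centring. Under these scalings the median of all genes moved from 0.03 to -0.03 and -0.02, and with this common shift lists with a median above 0 went from 39 to 18 and 23, and to between 24 and 49 with single arrays left out (24 without trained 2). The replicate block gave 498 genes and 2177 probe sets at p under 0.05 and 0 at 5%; deviations of same-numbered arrays correlated at -0.19, -0.36 and 0.16, so the numbers do not pair the animals.

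Of 4634 alternatives for 227 named results, 4592 kept direction and side of the threshold, 40 in 28 results reversed and 2 passed. These results were chosen for a small p or separated groups in the same arrays, and none had passed the threshold. The count of those kept was therefore largely set by the choice and lends the changes no support. With the 6 arrays fitted alone the smallest adjusted p in limma was 1.00 for genes and 0.596 for probe sets. With high or middle signal only the reversed changes were ALDH1A2 0.043, CAMK2B -0.047, CTSK 0.21, HEYL -0.090, NOTCH3 0.094, SCN8A -0.12, SFRP1 0.15, SLC17A9 -0.14, SLC2A1 0.097 and TRPV2 0.16. Without floor probe sets they were ALDH1A2 0.024 and CAMK2B -0.049, with the median over probe sets CAMK2B -0.0024 and SLC4A4 -0.033, and with a common floor ATP2B4 0. Among males they were CRH -0.029, HBA -0.70, RPL5 0.14 and SLA -0.12. With the GAPDH covariate they were GRIK1 -0.010, MBP 0.18, RGS9 -0.040, STMN3 0.0043, EIF3I 0.017 and RAB1A 0.011, and with the actin covariate RGS9 -0.017. With single arrays left out the ranges were -0.12 to 0.56 for ATP2B4, -1.49 to 0.15 for GABRG3, -0.0040 to 0.32 for GRIK1, -1.06 to 0.018 for GRM7, -0.55 to 1.65 for HBA, -0.99 to 0.042 for HEMGN, -0.68 to 0.40 for MBP, -0.012 to 0.42 for MYRF, -1.23 to 0.0058 for NLGN3, -0.29 to 0.041 for NOTCH3, -0.14 to 0.31 for RTN4, -0.045 to 0.48 for SLA and -1.14 to 0.017 for SLC2A1. The causes were not tested. Low signal and 3 arrays per group limit what can be told.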

Other observations

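GID8, a subunit of the GID/CTLH ubiquitin ligase, had 3 probe sets of high or middle signal that each separated the groups. As a gene it lay at -0.50, -0.30 and -0.21 in the controls and at 0.29, -0.08 and -0.11 in the trained arrays, a change of 0.37 ± 0.18, and 0.27 with the GAPDH covariate. It was chosen after its values were seen and did not pass the test. Of 2716 genes with at least 3 probe sets, 2 had 3 or more that separated the groups in 1 direction and none in the other. These were GID8, with all 3, and LOC697452, with 3 of 7 and overlapping groups for the gene as a whole (0.26 ± 0.26).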
